A study of Mus musculus with 103 samples.

Results

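The hepatic genes of mouse embryo RNA were set against those of 2 arrays that are labelled brain and carry liver transcripts. The comparison took 4 of the 103 arrays of the series by their titles, 2 titled embryo and 2 titled brain, with 1 array of each pair made by each labelling protocol. The series tested a way of labelling very small amounts of RNA for Affymetrix mouse arrays. Its tissue set held 16 arrays, in which each of 8 tissues was hybridised once after AFFX1rd labelling of 1 ug of total RNA (the standard one-cycle kit, which makes cRNA) and once after BIIB labelling of 500 pg (which makes cDNA). Both groups, embryo and labelled brain, were total RNA from 1 commercial mouse tissue panel, and the labels give no strain, genotype, sex, age or number of animals, and no stage for the embryo. No label says that the 2 arrays of a tissue came from separate RNA preparations, so the p-values below may reflect technical spread alone, and 2 arrays a tissue set their precision. Where signals are given in pairs, the AFFX1rd array comes first and the BIIB array second.

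The brain label went against the data in both protocols. Alb (albumin) had signals of 241300 and 334200 in embryo and 389000 and 1383000 in the arrays labelled brain, against 65.2 and 379 in the arrays labelled liver. The signals of 30 neural genes summed to 52650 and 56490 in embryo and to 10560 and 9868 in the arrays labelled brain, against 703900 and 991100 in the arrays labelled liver. Snap25, a synaptic vesicle fusion protein, stood at 143 and 70.5 in the arrays labelled brain, and Mbp, a myelin protein, at 138 and 148. The 2 arrays are therefore called the arrays labelled brain throughout and are given no other tissue name. They are the whole of their group, so no comparison with embryo can be made without them. They also held exocrine pancreas transcripts: Cpb1, a pancreatic carboxypeptidase, had 9717 and 11470 in embryo and 76610 and 88750 in the arrays labelled brain, and reached 65770 in an array labelled spleen. The 21 intestine and pancreas genes on the array summed to 182700 and 297000 in embryo, 515800 and 648400 in the arrays labelled brain, and between 2740 and 334400 in the other 12 tissue arrays. The part of pancreatic RNA in the results below was not tested.

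Hepatocytes make most plasma proteins, clear drugs and bile acids, dispose of nitrogen as urea and keep blood glucose steady. In the mouse these functions are known to be acquired in steps: the young liver makes alpha-fetoprotein and other secreted proteins and hosts blood formation, and many metabolic enzymes come on around birth or at weaning. The yolk sac and the fetal gut make some of the same secreted proteins. A signal from whole embryo RNA sums over all its tissues, so fewer cells of a type and less RNA per cell cannot be told apart.

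The promoters of 4 genes are shown because their genes gave 3 different outcomes below: Afp was higher in embryo, Alb and Igfbp1 were not called, and Mug1 was lower. Afp and Alb belong to 1 gene family and lie side by side on chromosome 5. The windows run from 250 bases before to 50 bases after the gene start in RefSeq, build GRCm38.p6, 5′ to 3′ on the gene's strand, which is the plus strand for all 4. They are chr5:90490464-90490763 for Afp, chr5:90460620-90460919 for Alb, chr11:7197537-7197836 for Igfbp1 and chr6:121838291-121838590 for Mug1. Capitals mark each match on either strand to GTTAAT, 1 arm of the palindrome bound by HNF1, a transcription factor of liver and kidney.
Afp: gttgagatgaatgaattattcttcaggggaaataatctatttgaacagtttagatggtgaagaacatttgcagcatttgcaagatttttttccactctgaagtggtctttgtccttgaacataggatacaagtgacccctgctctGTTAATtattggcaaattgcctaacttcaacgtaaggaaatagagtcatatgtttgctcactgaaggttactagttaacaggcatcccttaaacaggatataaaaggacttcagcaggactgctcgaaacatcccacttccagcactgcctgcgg
Alb: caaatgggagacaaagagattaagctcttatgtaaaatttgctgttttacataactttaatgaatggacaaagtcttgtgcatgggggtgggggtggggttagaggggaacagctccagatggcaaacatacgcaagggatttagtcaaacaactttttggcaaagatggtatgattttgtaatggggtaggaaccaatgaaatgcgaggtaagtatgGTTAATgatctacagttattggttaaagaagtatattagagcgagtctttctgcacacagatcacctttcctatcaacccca
Igfbp1: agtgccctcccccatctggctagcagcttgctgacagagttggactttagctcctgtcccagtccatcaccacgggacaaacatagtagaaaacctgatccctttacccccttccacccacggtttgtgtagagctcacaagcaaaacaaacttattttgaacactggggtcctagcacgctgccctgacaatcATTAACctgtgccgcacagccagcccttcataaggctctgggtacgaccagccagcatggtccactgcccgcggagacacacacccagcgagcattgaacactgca
Mug1: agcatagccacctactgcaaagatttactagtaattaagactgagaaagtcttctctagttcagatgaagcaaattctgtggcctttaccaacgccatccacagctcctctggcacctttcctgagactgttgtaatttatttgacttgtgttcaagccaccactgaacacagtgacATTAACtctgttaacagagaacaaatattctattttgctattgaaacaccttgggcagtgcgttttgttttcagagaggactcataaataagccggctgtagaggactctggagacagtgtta
The match began 105 bases before the start in Afp and 32 in Alb on the gene's strand, and 56 bases before it in Igfbp1 and 73 in Mug1 on the opposite strand. GTTAAT was found in 7.1% of all 32851 promoter windows of the table. Of the 398 hepatic list genes described below, 324 had a window, and 14.5% of their 393 windows held it. It was in 9 of 23 windows of coagulation genes, 5 of 14 of complement genes and 6 of 17 of serpin and acute phase genes, and in 2 of 37 of cytochrome P450 genes. The share was 14.9% of 315 windows for genes called lower in embryo and 15.3% of 59 for tested genes not called lower. A match describes the letters of a window and is not a binding site.

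Embryo and the arrays labelled brain differed widely. A probe set was called when limma's Benjamini-Hochberg adjusted p was under 0.05 and the difference at least 2-fold, in a fit of all 16 tissue arrays with protocol as a covariate. Of 15180 probe sets tested, 3549 were higher in embryo (23.4%) and 1852 lower (12.2%). Differences are embryo minus labelled brain on the log2 scale after a pseudocount of 5% of the common array mean was added to each signal, which understates the change of dim genes. The median difference of all tested probe sets was 0.35, and 0.06 after quantile normalization, so each list's median is to be read against 0.35. Of all calls 65.7% were higher in embryo, against 53.1% after quantile normalization. The median signal of all probe sets was 956 and 620 in embryo and 592 and 432 in the arrays labelled brain.

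Hepatic genes ran the other way. The 13 hepatic lists named 398 genes on the array, each read from its brightest probe set, and 378 of them passed the filter on mean signal. In embryo 313 of the 378 were called lower, where 12.2% of all probe sets were, and 8 were called higher, where 23.4% of all were. Their median difference was -3.03. Leaving protocol out of the model ended some calls. Among the genes named below these were Ahsg, Fgb, Fgg, C8b, Saa3, Gstm5, Spink1, Elovl6, Fads2, Cdh1, Cdh2, Ttr and Csf1r. A gene bright in the arrays labelled brain alone could pass the filter on that ground, so the tested genes are partly chosen by their level there. Of the 378 tested genes, 363 had the same sign in both protocols, and the share over all tested probe sets was not counted. Most hepatic genes nevertheless gave a signal in embryo: 372 of the 398 stood at 500 or more in both arrays labelled brain (500 being 20% of the common array mean), and of these 74.2% also did so in both embryo arrays and 12.9% in neither. Over all probe sets at 500 or more in both arrays labelled brain, the same shares were 84.5% and 4.3%. A second contrast was embryo minus the mean of the 6 tissues labelled heart, kidney, liver, lung, ovary and spleen. In it 160 of the 378 hepatic genes were called higher in embryo, where 9.58% of all probe sets were. Another 23 were called lower in embryo, and the share of all probe sets called lower in that contrast was not counted. The contrasts share the embryo arrays, so their counts are given side by side and not crossed.

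**Figure D1:**
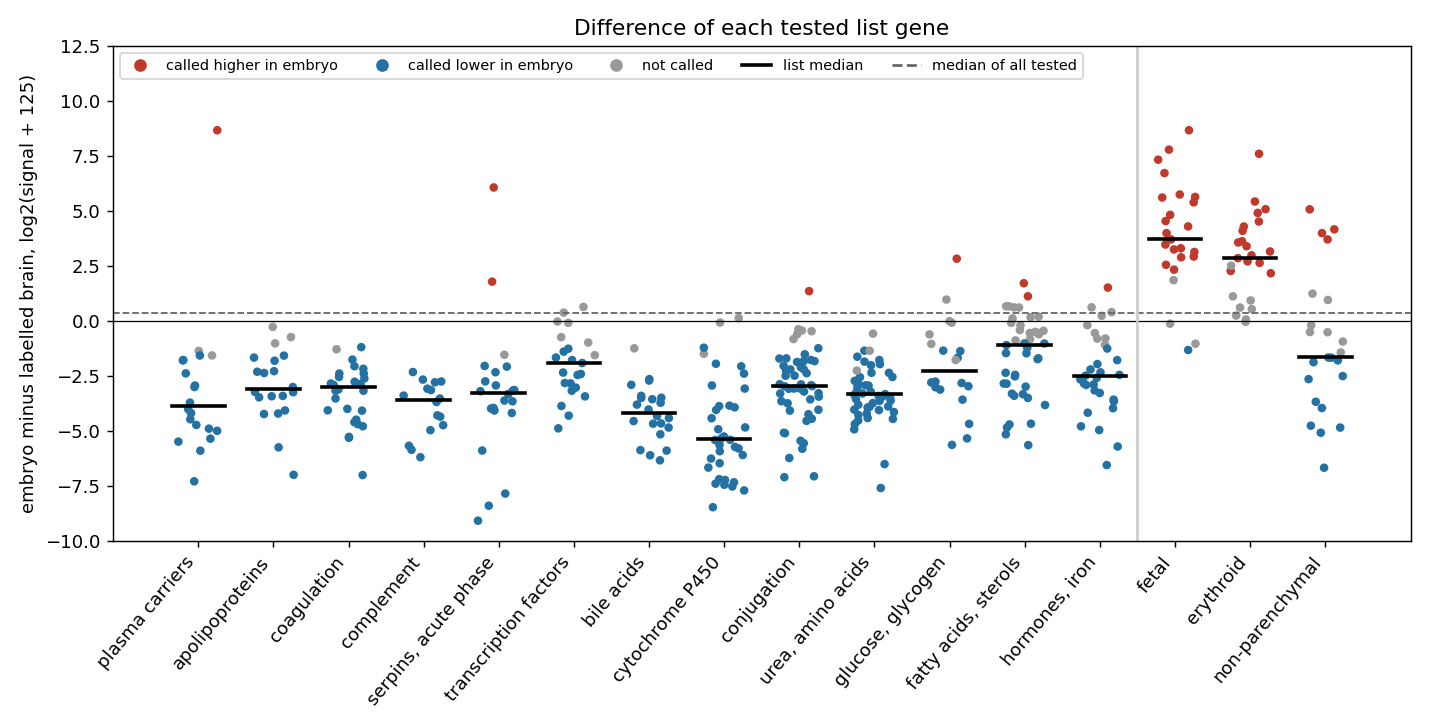
Difference of each tested list gene, embryo minus labelled brain on log2(signal + pseudocount), by list, with 13 hepatic lists left of the grey line and the fetal, erythroid and liver non-parenchymal lists right of it. Black bars are list medians, which run from -5.37 (cytochrome P450) to -1.10 (fatty acids and sterols) in the hepatic lists against 3.70 in the fetal list and 2.85 in the erythroid list, and the dashed line is the median of all tested probe sets (0.35).

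Afp, alpha-fetoprotein, the plasma protein of the fetal liver and yolk sac, was the hepatic gene with the largest rise. Its signals were 153100 and 215500 in embryo, against 275 and 376 in the arrays labelled brain and at most 391 in the other 12 tissue arrays. Both embryo arrays stood far above all others. The difference was 8.67 ± 0.49 (SE, adjusted p 4.58e-07 in limma) and lay between 8.37 and 9.03 under the alternative fits. Alb, its adult counterpart and the main plasma protein, was already bright in embryo: its 241300 and 334200 lay below the 389000 and 1383000 of the arrays labelled brain in both protocols. The groups did not overlap, yet the difference of -1.37 ± 0.69 was not called (adjusted p 0.143), and it was -0.69 between the AFFX1rd arrays and -2.05 between the BIIB arrays. Against the other 6 tissues, embryo Alb was higher by 7.46 ± 0.53 (adjusted p 1.47e-06).

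The plasma carrier list held 20 tested genes, of which 17 were lower in embryo, 1 (Afp) higher and 2 not called, with a median of -3.87. Against the other 6 tissues 14 of the 20 were higher in embryo. Ahsg (fetuin A, a calcium-binding serum protein) had 85760 and 193600 in embryo, against 243600 and 605700 in the arrays labelled brain. Serpina6, the corticosteroid-binding globulin, had 22050 and 31650 in embryo and 78610 and 79250 in the arrays labelled brain. The embryo arrays lay below those labelled brain with no overlap for both carriers. Ahsg was called (-1.57 ± 0.43, adjusted p 0.0129) and Serpina6 was not (-1.57 ± 0.64, adjusted p 0.0745), though it was in the fit of the 4 arrays alone (-1.57, adjusted p 0.0394). The Ahsg call was lost without the embryo BIIB array (-1.28, adjusted p 0.109) and without the AFFX1rd array labelled brain (-1.36, adjusted p 0.0854), with quantile normalization (-1.23, adjusted p 0.115) and with a pseudocount of 25 (-1.58, adjusted p 0.107). Hpx, the haem carrier hemopexin, was much lower in embryo, with 8611 and 5308 against 249700 and 195100 in the arrays labelled brain (-5.00 ± 0.47, adjusted p 1.02e-05). Mup3, a major urinary protein, gave next to no signal in embryo, 29.2 and 183, against 22740 and 51190 in the arrays labelled brain (-7.30 ± 0.42, adjusted p 4.58e-07). The Mup genes are near-identical copies, and their probe sets may not tell them apart.

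Apolipoproteins are the protein coats of lipid particles. All 20 list genes stood at 500 or more in both embryo arrays and in both arrays labelled brain. In embryo 17 of the 20 were lower, 0 higher and 3 not called, with a median of -3.12, and 16 were higher than in the other 6 tissues. With protocol left out of the model 11 were called lower. Apoa4, an apolipoprotein of intestine and liver, had 20420 and 99760 in embryo and 29560 and 101300 in the arrays labelled brain. The groups overlapped, and the difference of -0.28 ± 0.74 was not called (adjusted p 0.803). Mttp, which loads lipid onto apolipoprotein B, was likewise not called, with 6948 and 6316 in embryo and 14280 and 8695 in the arrays labelled brain (-0.74 ± 0.50, adjusted p 0.274). Apob itself, the structural protein of very low density lipoprotein, had 13350 and 27230 in embryo against 114200 and 208800 in the arrays labelled brain (-3.01 ± 0.38, adjusted p 8e-05). Apoa5, a regulator of plasma triglycerides, was the apolipoprotein with the largest fall. It had 1082 and 726 in embryo against 113200 and 148700 in the arrays labelled brain (-7.00 ± 0.58, adjusted p 4.12e-06). Apoa5 and Apoa4 are neighbours in 1 gene cluster on chromosome 9.

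**Figure D2:**
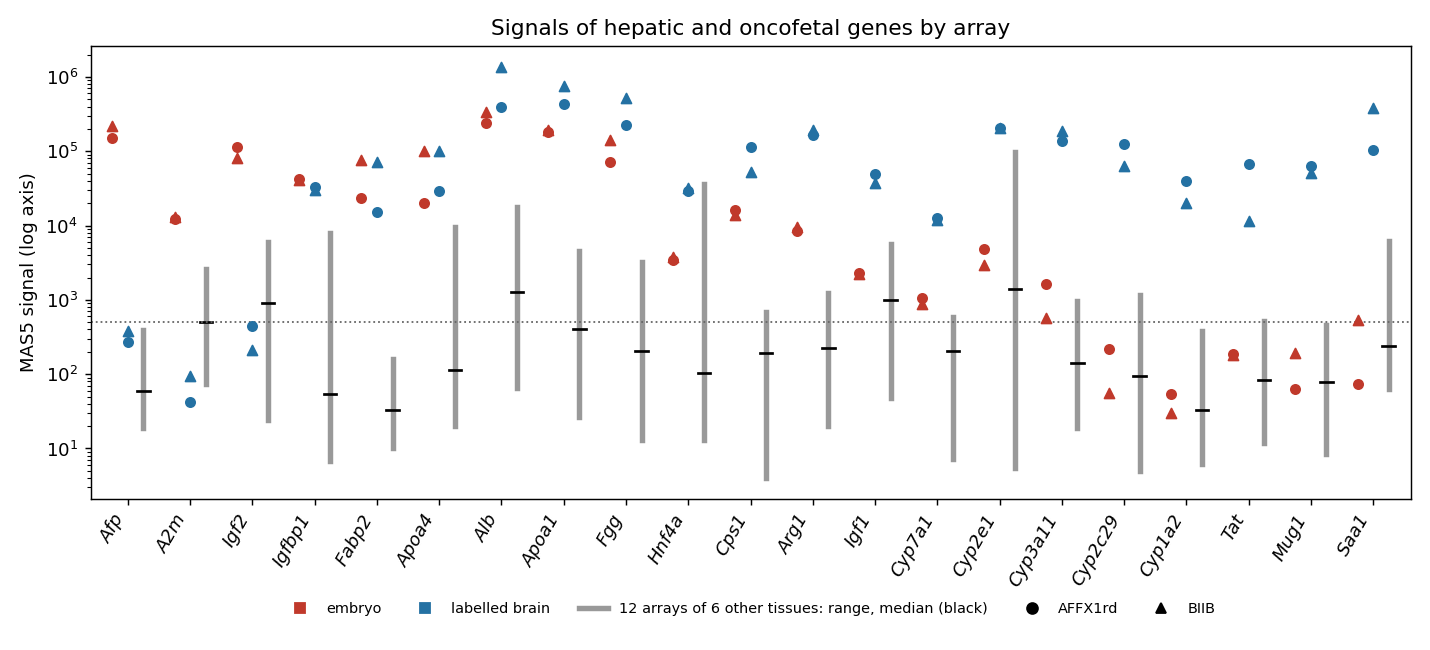
MAS5 signal on a log axis of 21 genes in the embryo arrays (red), the arrays labelled brain (blue) and the 12 arrays of 6 other tissues (grey line, range, with a black bar at the median). Circles are AFFX1rd and triangles BIIB arrays, and the dotted line is a signal of 500. From left to right the embryo points pass from far above the blue ones (Afp, 153100 and 215500 against 275 and 376) through like levels (Igfbp1, Fabp2, Apoa4) to levels within the grey range (Cyp1a2, 53.5 and 30.4 against 39400 and 20010).

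Of 28 tested coagulation genes, 27 were lower, 0 higher and 1 (Habp2) not called, with a median of -3.02, and 22 were higher than in the other 6 tissues. In both embryo arrays 23 of the 28 stood at 500 or more, and 2 did so in neither. Fgg and Fgb encode chains of fibrinogen, which forms the clot. Fgg had 72660 and 142700 in embryo against 226100 and 529000 (-1.76 ± 0.40, adjusted p 0.00446). Fgb had 47850 and 175000 in embryo against 255300 and 674400 (-2.18 ± 0.51, adjusted p 0.00546), and without the embryo AFFX1rd array its call was lost (-1.85, adjusted p 0.0513). In both genes the embryo arrays lay below those labelled brain with no overlap. F2, prothrombin, had 15290 and 18440 in embryo against 143300 and 150600 in the arrays labelled brain (-3.12 ± 0.49, adjusted p 0.000451). F9, the haemophilia B factor, had 378 and 147 in embryo, close to its highest signal of 345 in the other tissues, against 24080 and 8380 in the arrays labelled brain (-5.28 ± 0.47, adjusted p 7.18e-06). Fgl1, a fibrinogen-like secreted protein, fell most, with 446 and 814 in embryo against 89600 and 99510 (-7.01 ± 0.49, adjusted p 1.5e-06).

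All 16 complement genes were lower in embryo, with a median of -3.61, and 11 were higher than in the other 6 tissues. Within the membrane attack complex, the pore that complement builds, members stood apart in size. C8b, a C8 subunit, had 2421 and 8703 in embryo against 16980 and 53200 in the arrays labelled brain (-2.67 ± 0.51, adjusted p 0.0016). C8a, its partner subunit, had 378 and 140 in embryo against 25540 and 13540 (-5.68 ± 0.46, adjusted p 3.41e-06). C9, which forms the ring of the pore, had 1245 and 168 in embryo against 57460 and 37580 (-6.20 ± 0.52, adjusted p 4.87e-06). The difference between C8b and C8a was not tested.

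Of 22 serpins, protease inhibitors and acute phase proteins, 19 were lower in embryo, 2 higher and 1 not called, with a median of -3.26, and 14 were higher than in the other 6 tissues. The alpha-2-macroglobulin family, broad plasma protease inhibitors, split by member. A2m had 12440 and 13010 in embryo against 42.3 and 95.2 in the arrays labelled brain (6.06 ± 0.48, adjusted p 2.96e-06). Pzp had 24410 and 28580 in embryo against 236600 and 300400 (-3.33 ± 0.58, adjusted p 0.000861), and Mug1 had 63.4 and 192 in embryo against 62880 and 50710 (-7.85 ± 0.40, adjusted p 2.77e-07). So 1 member was bright in embryo alone of the pair of groups, 1 in both and 1 in the arrays labelled brain alone, and all 3 lie on chromosome 6. Saa1, a serum amyloid A of the acute phase, had the largest fall of the tested hepatic list genes. It had 73.9 and 538 in embryo against 103500 and 376800 in the arrays labelled brain (-9.09 ± 0.57, adjusted p 7.43e-07), and its relative Saa2 had 108 and 76.9 against 114700 and 47180 (-8.41 ± 0.81, adjusted p 1.18e-05). Saa3 and Saa4 of the same family were also called lower (-2.34 and -5.90). The Saa3 call was lost with protocol left out of the model (-2.34, adjusted p 0.371). It was also lost without the BIIB array labelled brain (-2.23) and without the embryo AFFX1rd array (-2.28). Saa1 and Saa2 are near-identical, and their probe sets may share targets. Spink1, a trypsin inhibitor of pancreas and gut, was higher in embryo, with 7191 and 4911 against 1812 and 1481 (1.78 ± 0.60, adjusted p 0.035). That call was lost without any 1 of the 4 arrays (1.68 to 1.89, adjusted p 0.104 to 0.134) and with quantile normalization (1.49, adjusted p 0.0966).

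Of 23 tested transcription factors of hepatocytes, 16 were lower in embryo, 0 higher and 7 not called, with a median of -1.92, and 4 were higher than in the other 6 tissues. Without the AFFX1rd array labelled brain 9 were called lower, and with protocol left out of the model 10. Hnf4a, a nuclear receptor that sustains hepatocyte identity, had 3425 and 3795 in embryo against 29280 and 31730 in the arrays labelled brain (-3.04 ± 0.35, adjusted p 4.75e-05), and reached 36190 in an array labelled kidney. Foxa1, a pioneer factor of endoderm, was not called, with 950 and 671 in embryo and 1565 and 1290 in the arrays labelled brain (-0.74 ± 0.57, adjusted p 0.337). The receptors that sense foreign compounds and bile acids stood lower. Nr1i3 (CAR), which switches on drug-clearing enzymes, had 32.8 and 210 in embryo against 11210 and 3964 (-4.89 ± 0.54, adjusted p 3.21e-05). Nr0b2 (SHP), which represses bile acid synthesis, had 58.3 and 244 in embryo against 5631 and 4515 (-4.31 ± 0.59, adjusted p 0.000159). Nr1h4 (FXR), the bile acid receptor, had 576 and 1260 in embryo against 7347 and 15070 (-3.44 ± 0.45, adjusted p 0.000104). Embryo lay below the arrays labelled brain with no overlap for each of these 5 genes, Foxa1 included.

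Bile acid genes were 21 of 22 lower in embryo, 0 higher and 1 (Fgfr4) not called, with a median of -4.18, and 9 were higher than in the other 6 tissues. Fgfr4, a receptor of the bile acid feedback hormone, was called lower with quantile normalization (-1.63, adjusted p 0.0314) and without the embryo AFFX1rd array (-1.95, adjusted p 0.0372). Cyp7a1, the rate-limiting enzyme of bile acid synthesis, was above 500 in both embryo arrays, with 1049 and 874 against 12510 and 11840 in the arrays labelled brain (-3.50 ± 0.50, adjusted p 0.000222). Slc10a1, the main bile salt importer of hepatocytes, had 6690 and 5366 in embryo against 98600 and 101300 (-4.03 ± 0.44, adjusted p 3.1e-05). Abcb11, the bile salt export pump, had 753 and 826 in embryo against 14060 and 11450 (-3.81 ± 0.45, adjusted p 5.49e-05). Slc10a1 and Abcb11 were thus above 500 in both embryo arrays. Baat, which joins bile acids to taurine, had 234 and 229 in embryo against 7809 and 10360 (-4.68 ± 0.34, adjusted p 1.69e-06). Slco1b2, an organic anion importer, had 408 and 145 in embryo against 39390 and 17340 (-6.11 ± 0.52, adjusted p 5e-06).

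Cytochrome P450 and related oxidising enzymes, which clear drugs, steroids and fatty acids, had the lowest median difference of the 13 hepatic lists. Of 36 tested, 33 were lower in embryo, 0 higher and 3 not called, with a median of -5.37, and 8 were higher than in the other 6 tissues. Of the 37 that stood at 500 or more in both arrays labelled brain, 18 were below 500 in both embryo arrays and 13 were at 500 or more in both. Cyp2c29, a drug-oxidising enzyme, had 219 and 55 in embryo against 123700 and 63080 in the arrays labelled brain (-8.47 ± 0.56, adjusted p 1.01e-06). Cyp1a2, which oxidises caffeine, had 53.5 and 30.4 in embryo against 39400 and 20010 (-7.40 ± 0.42, adjusted p 4.44e-07). For both, the embryo arrays lay within the range of the other 12 tissue arrays. Cyp3a11, a main drug-clearing enzyme, had 1622 and 562 in embryo against 137000 and 188800 (-7.20 ± 0.46, adjusted p 8.21e-07), and its highest signal in the other tissues was 961. Cyp2e1, which oxidises ethanol, had 4807 and 2907 in embryo against 208500 and 202700 (-5.73 ± 0.39, adjusted p 1.3e-06), and reached 98450 in an array labelled kidney. A few stood well above the filter in embryo. Cyp2d26 had 8952 and 8802 against 82760 and 69880 (-3.08 ± 0.35, adjusted p 3.97e-05), and Cyp2c70, which makes muricholic bile acids, had 5906 and 2468 against 71120 and 60270 (-4.05 ± 0.37, adjusted p 8.41e-06). The highest of the other 12 tissue arrays was 898 for Cyp2c70, below both embryo arrays, and 16010 (labelled kidney) for Cyp2d26, above them. The Cyp2c, Cyp2d and Cyp3a genes are families of near-identical copies, so values of single members are uncertain.

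**Figure D3:**
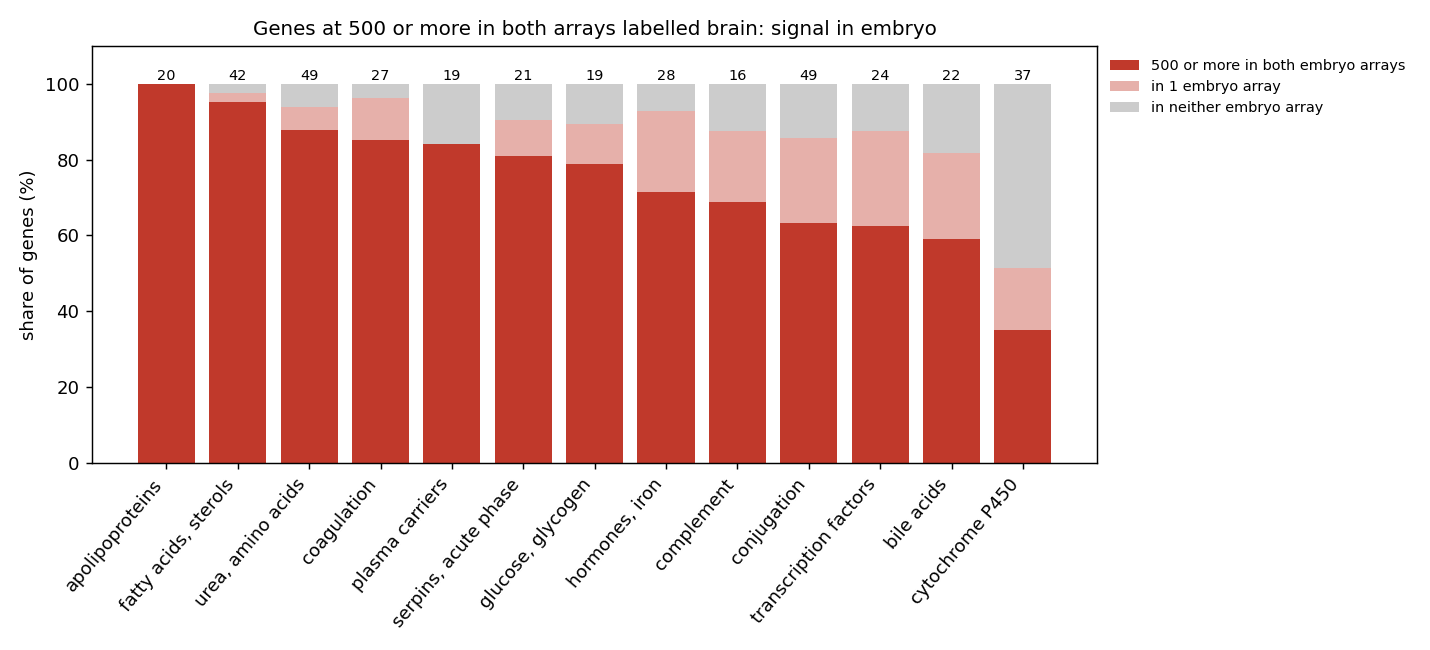
Share of the genes of each hepatic list at 500 or more in both arrays labelled brain (number above each bar) that were at 500 or more in both embryo arrays (red), in 1 (pink) or in neither (grey). Apolipoproteins were all at 500 or more in both embryo arrays (100%), and cytochrome P450 genes had the lowest such share (35.1%) and the highest share in neither (48.6%).

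Conjugation enzymes attach sugar, sulphate or glutathione to compounds. Of 50 tested, 44 were lower in embryo, 1 (Gstm5) higher and 5 not called, with a median of -2.95, and 12 were higher than in the other 6 tissues. Ugt2a3, a glucuronosyltransferase, gave 28.1 and 0.9 in embryo against 10450 and 10230 in the arrays labelled brain (-6.24 ± 0.35, adjusted p 4.44e-07). Its relative Ugt2b34 had 3784 and 2506 in embryo against 28560 and 21870 (-2.97 ± 0.44, adjusted p 0.00029). The alcohol dehydrogenases also split: Adh4 had 54.3 and 74.3 in embryo against 10460 and 10600 (-5.82 ± 0.43, adjusted p 1.83e-06), and Adh1 had 39700 and 37970 against 185000 and 222500 (-2.38 ± 0.44, adjusted p 0.00138). Within each pair, 1 gene was under 500 in both embryo arrays and the other was above 500 in both. Gstm5, a glutathione transferase, had 10570 and 15680 in embryo against 3173 and 7741 (1.35 ± 0.30, adjusted p 0.00451), but the call was lost in the fit of the 4 arrays alone (1.35, adjusted p 0.0663).

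Of 48 tested urea cycle and amino acid enzymes, 45 were lower, 0 higher and 3 not called, with a median of -3.35, and 22 were higher than in the other 6 tissues. Of 49 list genes at 500 or more in both arrays labelled brain, 87.8% were so in both embryo arrays, close to the 84.5% of all such probe sets. Cps1, which commits ammonia to the cycle, had 16280 and 13770 in embryo against 114500 and 52560 in the arrays labelled brain (-2.36 ± 0.60, adjusted p 0.00901). Otc, the next enzyme, had 1618 and 3362 in embryo against 42260 and 69270 (-4.46 ± 0.62, adjusted p 0.00018). Asl, which splits argininosuccinate, had 2420 and 5421 in embryo against 30520 and 48610 (-3.36 ± 0.36, adjusted p 2.63e-05). Arg1, which releases urea, had 8458 and 9674 in embryo against 163100 and 194500 (-4.28 ± 0.50, adjusted p 4.63e-05). Each lay below the arrays labelled brain without overlap, and the Cps1 call was lost without the embryo BIIB array (-2.24, adjusted p 0.0597), without the AFFX1rd array labelled brain (-1.73, adjusted p 0.0947), and with a pseudocount of 25 (-2.37, adjusted p 0.0607). The breakdown of aromatic amino acids was read by step. Tat, the first enzyme for tyrosine, had 185 and 180 in embryo against 68220 and 11420 (-6.51 ± 0.75, adjusted p 4.26e-05), and Tdo2, the first for tryptophan, had 80.3 and 1075 against 117400 and 79110 (-7.60 ± 0.79, adjusted p 2.01e-05). Hpd, the second tyrosine step, had 12610 and 7748 in embryo against 176600 and 157300 (-4.06 ± 0.44, adjusted p 2.76e-05), and Fah, the last, had 8114 and 20150 against 57340 and 76750 (-2.36 ± 0.36, adjusted p 0.00033). The differences between these steps were not tested.

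Among 20 tested glucose and glycogen genes, 13 were lower in embryo, 1 (Pck2) higher and 6 not called, with a median of -2.27, and 8 were higher than in the other 6 tissues. Pck1, the cytosolic enzyme that commits carbon to glucose synthesis, had 2047 and 3469 in embryo against 67300 and 191100 in the arrays labelled brain (-5.34 ± 0.43, adjusted p 3.37e-06). Its mitochondrial counterpart Pck2 ran the other way, with 2701 and 2561 in embryo against 773 and 43.3 (2.83 ± 0.54, adjusted p 0.0016). G6pc, which releases free glucose, had 1177 and 1779 in embryo against 16240 and 21640 (-3.58 ± 0.31, adjusted p 5.56e-06). Pklr, the glycolytic pyruvate kinase of liver and red cells, was not called, with 2862 and 7495 in embryo and 5239 and 9842 in the arrays labelled brain (-0.62 ± 0.49, adjusted p 0.358). The groups overlapped for Pklr and for none of the other 3.

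Fatty acid and sterol genes had the median difference nearest 0 of the 13 hepatic lists. Of 43 tested, 24 were lower in embryo, 2 (Elovl6 and Pnpla3) higher and 17 not called, with a median of -1.10, and 8 were higher than in the other 6 tissues. With protocol left out of the model 13 were called lower. Cpt1a, the gate to mitochondrial oxidation, had 3172 and 1051 in embryo against 30920 and 12590 in the arrays labelled brain (-3.33 ± 0.31, adjusted p 9.02e-06), and Ehhadh, a peroxisomal enzyme, had 1100 and 521 against 24160 and 21230 (-4.68 ± 0.52, adjusted p 3.3e-05). The oxidation enzymes Cpt2 (-0.61), Acadl (-0.42), Acads (-0.55), Hadha (-0.20) and Hadhb (-0.45) were not called. Fasn, fatty acid synthase, had 10030 and 3497 in embryo and 4586 and 3245 in the arrays labelled brain (0.61 ± 0.34, adjusted p 0.189), Acly, which supplies its acetyl-CoA, had 11970 and 2339 against 9429 and 2352 (0.17 ± 0.33, adjusted p 0.729), and Sqle, a step of cholesterol synthesis, had 7927 and 3022 against 5709 and 3229 (0.19 ± 0.29, adjusted p 0.656). The groups overlapped for all 3. Among other synthetic enzymes Elovl2 (-4.85), Sc5d (-3.31) and Fads2 (-2.53) were called lower. The Fads2 call was lost with a pseudocount of 25 (-2.58, adjusted p 0.063) and with protocol left out of the model (-2.53, adjusted p 0.169). It was also lost without the BIIB array labelled brain (-2.00) and without the embryo BIIB array (-2.39). Scd1, which desaturates fatty acids, was also called lower, with 14020 and 10590 in embryo against 93810 and 84760 (-2.86 ± 0.34, adjusted p 5.64e-05). The 2 higher calls did not hold throughout: with quantile normalization Elovl6, which lengthens fatty acids, was at 0.76 (adjusted p 0.102) and Pnpla3, a lipid droplet protein, at 1.23 (adjusted p 0.061). Without the AFFX1rd array labelled brain Pnpla3 was at 0.88 and not called. Nor was it among the genes called higher when either embryo array was left out. The Elovl6 call was lost without any 1 of the 4 arrays (0.83 to 1.40).

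Among 31 tested genes for hepatic hormones, receptors, iron and metals, 22 were lower in embryo, 1 (Cdh1) higher and 8 not called, with a median of -2.49, and 12 were higher than in the other 6 tissues. Igfbp1, a secreted binder of insulin-like growth factors, had 42870 and 40640 in embryo and 33250 and 30270 in the arrays labelled brain. Both embryo arrays were the higher ones, but the difference of 0.39 ± 0.43 was not called (adjusted p 0.51). Against the other 6 tissues embryo Igfbp1 was higher by 6.99 (adjusted p 8.12e-08). The metallothionein Mt1, a binder of zinc, was not called either, with 85850 and 59700 in embryo and 170300 and 92880 in the arrays labelled brain (-0.81 ± 0.33, adjusted p 0.0726). Igf1, the main growth factor secreted by adult liver, had 2298 and 2210 in embryo against 49780 and 36990 (-4.18 ± 0.57, adjusted p 0.000147). Hamp, the iron hormone hepcidin, had 2034 and 315 in embryo against 131800 and 19750 (-5.71 ± 0.66, adjusted p 4.17e-05). Cdh1, the epithelial cadherin, was higher in embryo at 1591 and 1710 against 684 and 353 (1.51 ± 0.48, adjusted p 0.0274), a call lost with quantile normalization (1.02, adjusted p 0.155) and without 3 of the 4 arrays (1.10 to 1.59, adjusted p 0.0806 to 0.199).

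**Figure D4:**
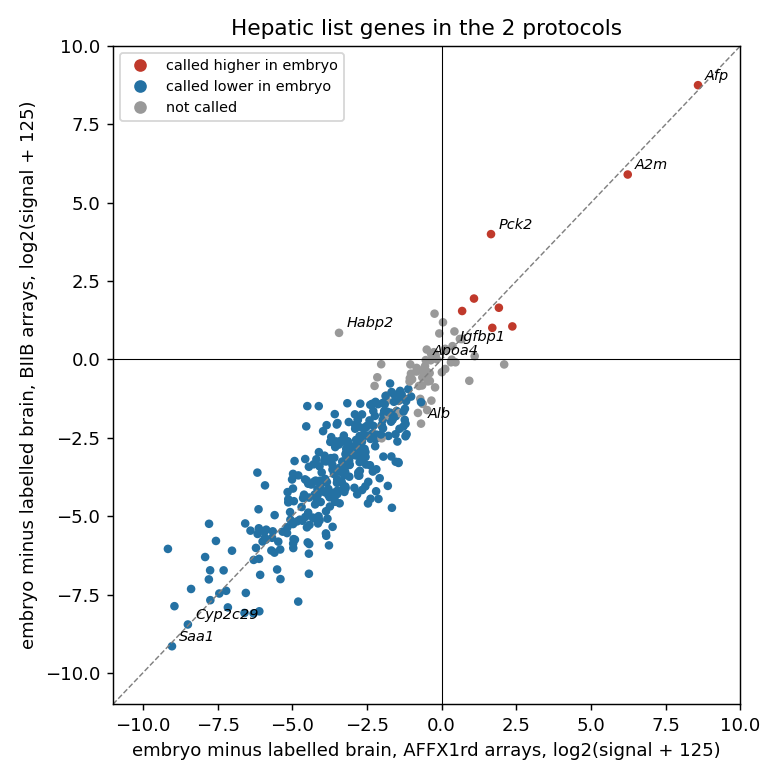
Difference, embryo minus labelled brain on log2(signal + pseudocount), of the 378 tested hepatic list genes between the AFFX1rd arrays (x axis) and between the BIIB arrays (y axis), with the line of equal differences dashed. Of the 378 genes, 363 have the same sign in both protocols, and Alb lies off the line at -0.69 (AFFX1rd) and -2.05 (BIIB).

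Genes known from fetal liver or from other embryonic and tumour tissue moved against the hepatic lists. Of 25 tested, 21 were higher in embryo, 1 (Cdh2) lower and 3 not called, with a median of 3.70. The Cdh2 call (-1.33) was lost without any 1 of the 4 arrays but the embryo BIIB array (-1.38 to -0.94, adjusted p 0.0803 to 0.197), with a pseudocount of 25 (-1.39, adjusted p 0.0541) and in the fit of the 4 arrays alone (-1.33, adjusted p 0.0671). Igf2, the fetal growth factor, had 113700 and 82450 in embryo against 451 and 210 in the arrays labelled brain (7.79 ± 0.48, adjusted p 7.43e-07), the reverse of Igf1. Dlk1, a surface protein of hepatoblasts and other progenitors, had 62510 and 2264 in embryo against 353 and 53.7 (5.39 ± 0.94, adjusted p 0.000853). Gpc3, a glypican of fetal liver and other embryonic tissue, had 17990 and 3742 in embryo against 287 and 317 (4.29 ± 0.65, adjusted p 0.00033). Pkm, the pyruvate kinase outside liver, had 24140 and 25150 in embryo against 1966 and 3691 (3.13 ± 0.32, adjusted p 1.88e-05). Muscle, cartilage and skin also express several of these genes. In embryo 29 of 31 tested muscle genes, 21 of 25 cartilage and connective tissue genes and all 16 epidermal genes were called higher. The part of those tissues in the fetal list's values was not tested. A gene bright in embryo alone could pass the filter on that ground. The tested genes of these lists, and of the red cell and proliferation lists below, are thus partly chosen by their embryo level. With no filter, 23 of 28 fetal, 34 of 36 muscle, 25 of 32 cartilage and 16 of 17 epidermal genes were called higher. Of all 22626 probe sets, 3649 were called higher with no filter.

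Red cell genes, which the fetal liver and the circulating blood both carry, were higher in embryo for 17 of 25 tested, lower for 0 and not called for 8, with a median of 2.85. Hbb-y, an embryonic beta-like globin, had 59760 and 25790 in embryo against 10.3 and 182 in the arrays labelled brain (7.60 ± 0.54, adjusted p 1.51e-06). Hba-x, the embryonic alpha-like globin, had 8389 and 680 in embryo against 27.4 and 29.3 (4.09 ± 0.67, adjusted p 0.000587). Alas2, the first enzyme of red cell haem synthesis, had 39300 and 24110 in embryo against 2316 and 899 (4.29 ± 0.71, adjusted p 0.000636). Klf1, the erythroid transcription factor, had 14730 and 7138 in embryo against 1224 and 884 (3.15 ± 0.37, adjusted p 4.73e-05). The embryo arrays stood above those labelled brain without overlap for each of these 4. Of 37 tested proliferation genes, 32 were higher in embryo and 0 lower, with a median of 2.57. Top2a, which untangles replicated DNA, had 7903 and 21700 in embryo against 594 and 790 (4.03 ± 0.36, adjusted p 6.78e-06).

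Other tissues of the embryo share genes with the liver, and their markers were present. Cubn, the cubilin receptor of yolk sac and kidney, had 2092 and 3828 in embryo against 91.3 and 88.3 in the arrays labelled brain (3.78 ± 0.44, adjusted p 4.63e-05). Lct, the intestinal lactase, had 2967 and 5276 in embryo against 180 and 149 (3.82 ± 0.54, adjusted p 0.000205). The 14 tested intestine and pancreas genes were higher in embryo for 4 and lower for 6, with a median of -0.37. Fabp2, the intestinal fatty acid binding protein, was bright in both groups, with 23510 and 76740 in embryo and 15210 and 71050 in the arrays labelled brain, and was not called (0.37 ± 0.66, adjusted p 0.7). The 18 tested yolk sac and visceral endoderm genes were higher for 11 and lower for 4, with a median of 1.99. The sums over the 19 on the array were 475800 and 713800 in embryo, 896700 and 1954000 in the arrays labelled brain, and 7207 to 277400 in the other tissue arrays. Without the BIIB array labelled brain 2 were called lower, and with protocol left out of the model 7 were higher and 2 lower. That list shares Afp, Ttr, Rbp4, Apoa4, Fgb, Foxa2, Hnf4a and Spink1 with hepatic lists. The part of yolk sac and gut in the embryo's hepatic signals, Apoa4 and Afp among them, was not tested.

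Cells of the liver other than hepatocytes gave a mixed picture. Of 23 tested genes, 12 were lower in embryo, 4 higher and 7 not called, with a median of -1.66. With protocol left out of the model 7 were called lower. Vsig4, a complement receptor of resident macrophages, had 288 and 26.7 in embryo against 26190 and 24870 in the arrays labelled brain (-6.68 ± 0.54, adjusted p 3.78e-06). Clec4f, a lectin of Kupffer cells, the liver's macrophages, had 751 and 843 in embryo against 22380 and 27810 (-4.77 ± 0.58, adjusted p 6.08e-05). Clec4g, a lectin of sinusoidal endothelium, had 438 and 642 in embryo against 17750 and 27730 (-5.09 ± 0.54, adjusted p 2.48e-05). Csf1r, the macrophage growth factor receptor, fell less, with 23940 and 6511 in embryo against 57350 and 28260 (-1.68 ± 0.35, adjusted p 0.00313). The 4 higher genes were Krt7, Krt19, Epcam and Des, which many epithelia and muscles of the embryo also express.

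A wider set, chosen by the contrast of the arrays labelled brain with the other 6 tissues, was also read. The embryo signals were not in that contrast. They did enter the filter on mean signal and the spread of the fit, so a high embryo signal could help a probe set pass. The set held the 574 probe sets called at least 8-fold higher in the arrays labelled brain than in the other 6 tissues, and is described without a test. In embryo 386 of the 574 (67.2%) were at 500 or more in both arrays, 74 in 1 and 114 (19.9%) in neither. Over all probe sets at 500 or more in both arrays labelled brain, a rule not applied to the 574, 84.5% were so in both embryo arrays and 4.3% in neither.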

How the data were processed

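MAS5 signal intensities were deposited by the authors for 103 one-colour Affymetrix arrays, and MAS5 is named per the submitters' processing notes. Its version and settings are not given in the sources used here. The 103 arrays had trimmed means (2% cut at each end) between 2500.23 and 2502.45, so the deposited intensities were scaled to a common mean near 2501. Each of the 16 tissue arrays was then multiplied by a factor that brought its trimmed mean to that common mean. The files carry no detection calls. From the deposited values 64 control probe sets of 22690 were left out, and probe sets with a mean signal under 500 over the 16 arrays were not tested. Values were fitted as log2(signal + 125) with limma 3.58.1 in R 4.3.3 on the 16 tissue arrays, with tissue and protocol as terms, and calls needed a Benjamini-Hochberg adjusted p under 0.05 and at least 2-fold. The script was tested on simulated data. The array annotation listed 21084 probe sets, 20393 with 1 symbol and 691 with several, which were not named, and 1606 were not listed. RefSeq (GRCm38.p6) matched 20364 by Entrez number and changed 0 symbols. Promoter windows also came from RefSeq. A list gene was read from its probe set with the highest mean signal. A gene outside the lists was read from the probe set with the largest difference among its called ones without overlap of the groups.

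The members and the 24 gene lists were chosen with earlier results of these data known. Any list gene could be named. Outside the lists, the named genes are the 10 called with the largest difference each way whose embryo arrays and arrays labelled brain did not overlap. Alternatives were quantile normalization, a pseudocount of 25, no filter, a fit of the 4 arrays alone, protocol left out, and each of the 4 arrays left out.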

Additional observations from a re-analysis of the deposited data

Results flagged for a closer look

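Among the tested list genes, 2, both erythroid, differed by at least 2-fold in opposite directions in the 2 labelling protocols. Smaller differences of opposite sign occurred in other genes, and 363 of the 378 hepatic list genes had the same sign in both. Hbb-b2, an adult beta globin, had 20.7 and 15140 in embryo against 480 and 3245 in the arrays labelled brain. Its embryo minus labelled brain difference was -2.05 between the AFFX1rd arrays and 2.18 between the BIIB arrays. Epor, the erythropoietin receptor, had 1177 and 35.7 in embryo against 219 and 311 in the arrays labelled brain. Its difference was 1.92 between the AFFX1rd arrays and -1.44 between the BIIB arrays. The difference between protocols was not tested, since each protocol has 1 array a tissue. Neither gene was called in the fit over both protocols.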

How the results depend on the processing

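The count of 8 hepatic genes higher in embryo was 4 with quantile normalization, 5 with a pseudocount of 25, 5 in the fit of the 4 arrays alone, 4 with protocol left out and 4 to 5 without 1 array. Afp, A2m and Pck2 were higher in each of these settings and with no filter. With protocol left out 1526 probe sets were higher and 890 lower, and 110 of the 618 other tested list genes lost their call. The other alternatives kept these counts within 1.5-fold: without 1 array, 2369 to 2909 probe sets were higher and 1335 to 1663 lower. Hepatic genes lower in embryo numbered 242 to 317 over all alternatives, 281 to 286 of them without 1 array. Afp stayed called (8.37 to 9.03), and without 1 array lay between 8.55 and 8.78. Alb stayed uncalled (-1.80 to -0.55), and without 1 array lay between -1.80 and -0.94. No called list gene changed sign, but some uncalled differences, among them those of Apoa4, Fabp2, Acly, Sqle, Pklr, Hbb-b2 and Epor, lay on both sides of 0 over the alternatives. At a minimum of 250, 1000 or 500 after quantile normalization, 313, 225 or 273 hepatic genes passed in both embryo arrays, against 281. A fit without 1 array takes the lone array of that group to vary like the other tissues. The fit with protocol as a term pairs the arrays by protocol. No paired analysis was possible by replicate number, because the labels number no tissue array. With no detection calls, signals under 500 give no bound on a level.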

Other observations

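The embryo arrays also carried tissues that the hepatic lists do not cover. Muscle genes were higher in embryo for 29 of 31 tested and lower for 0, with a median difference of 6.06, and their signals summed to 1379000 and 1546000 in embryo against 6153 and 6548 in the arrays labelled brain. Cartilage, bone and connective tissue genes were higher for 21 of 25 (median 4.51), and all 16 tested epidermal genes were higher (median 5.51). Neural genes were higher for 16 of 29 and lower for 1 (median 1.60). Kidney tubule genes were higher for 5 of 13 and lower for 0 (median 1.23), but for 2 in the fit of the 4 arrays alone or with quantile normalization, for 1 with protocol left out, and for 1 without the embryo AFFX1rd array and 3 without either array labelled brain. Intestine and pancreas genes were higher for 4 of 14 and lower for 6 (median -0.37), and 2 were higher without the embryo BIIB array. These counts stand beside 23.4% of all probe sets called higher and 12.2% called lower. Genes bright in embryo alone could pass the filter on that ground, so the tested genes of these lists are partly chosen by their embryo level.

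Outside the lists, the 10 genes with the largest rise were Dmkn, Eno3, Myoz2, Asprv1, Hspb1, Ndn, Actn2, Calm4, Crct1 and Sftpc. Sftpc, a surfactant protein of the lung, had 39440 and 74970 in embryo against 537 and 292 in the arrays labelled brain, and reached 654900 in an array labelled lung. The 10 with the largest fall were Hsd17b6, Rdh16f2, Sult2a2, Glyat, Igha, Pigr, Ces1f, BC023105, Cxcl9 and Slc17a2. Igha, the constant region of immunoglobulin A, had 45 and 43.1 in embryo against 20850 and 27440 in the arrays labelled brain, and was at least 4923 in each of the other 12 tissue arrays.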
